A study of Mus musculus with 8 samples.

Results

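CXC chemokines are small secreted proteins that direct the movement of leukocytes through G protein-coupled receptors. They fall into groups by the cells they call. Cxcl1, Cxcl2, Cxcl3 and Cxcl5 attract neutrophils through CXCR2, Cxcl9 and Cxcl10 are induced by interferons and attract activated T cells and NK cells through CXCR3, and Cxcl12 and Cxcl14 are made constitutively in many tissues, with Cxcl12 retaining blood-forming cells in the bone marrow through CXCR4. Cxcl16 stands apart, since it is made as a membrane-anchored protein that can be shed and is the ligand of CXCR6. Macrophages that sense microbial RNA or other ligands of Toll-like receptors switch on the neutrophil-attracting genes largely through NF-kB and Cxcl10 through both NF-kB and interferon-regulated factors.

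These 9 genes were described here, out of 34745 Ensembl genes in a count table of mouse macrophage messenger RNA. They were picked out of the table by symbol, and the choice of this family was made with earlier results of these data known. Macrophages grown from mouse bone marrow in M-CSF (macrophage colony-stimulating factor) at 20 ng/ml were sequenced in 8 libraries, 2 in each of 4 groups. The groups were KAT8-deficient cells with R848 at 100 ng/ml for 6 h, WT cells with the same R848 treatment, KAT8-deficient cells left untreated, and WT cells left untreated. R848 is a synthetic agonist of the RNA sensor TLR7, and KAT8 is an enzyme that acetylates histone H4. The titles name the mutant KAT8-cKO. The sources used here do not give what drives the deletion, the age or strain of the mice, or whether libraries of 1 group came from separate animals or cultures. The p-values below therefore measure only the spread between these libraries.

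Total counts ran from 18550977 to 21384532 per library, so that 3 counts corresponded to 0.14 to 0.162 CPM (counts scaled to a common library size, here with TMM normalisation). Kat8 stood at 9.94 and 10.4 CPM in KAT8-deficient R848 libraries against 18.03 and 15.98 CPM in WT R848 libraries, and at 8.76 and 10.8 CPM in untreated KAT8-deficient against 17.0 and 17.9 CPM in untreated WT libraries. The macrophage marker Cd68 ran from 1577 to 1956 CPM, and Csf1r and Adgre1 were present in every library. Neutrophil markers summed to between 4.43 and 8.05 CPM, with Ly6g at 0, and T and NK cell markers to between 0.377 and 1.26 CPM, with Ncr1 at 0. Most of the neutrophil sum was S100a8, at 4.06 to 6.83 CPM. Its counts were 105 and 86 in each of KAT8-deficient R848, untreated KAT8-deficient and untreated WT, and 128 and 111 in WT R848 libraries. The cause of these equal counts was not tested, so the sum is not read as neutrophil content. Camp had 14 and 15 counts in WT R848, 1 and 0 in untreated WT and 3 and 2 in KAT8-deficient R848 libraries. Camp passed the filter on low counts only through the WT R848 libraries. Tests that set this group against another therefore follow in part from the filter, and no call is read from them. Stromal messages were abundant, with 12 markers summing to between 2702 and 4721 CPM. These are bulk measurements, in which fewer cells of a type and less RNA per cell cannot be told apart.

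Most of the family lies on mouse chromosome 5 (positions from GENCODE M21, GRCm38). Cxcl5 (90759360 to 90761624) and Cxcl3 (90786103 to 90789600) were followed 131.9 and 144.5 kb beyond the start of Cxcl5 by Cxcl1 (90891241 to 90893115) and Cxcl2 (90903871 to 90905938), all on the plus strand. Cxcl9 (92321347 to 92328079) and Cxcl10 (92346638 to 92348889) are neighbours on the minus strand of the same chromosome. Cxcl12 lies on chromosome 6 (117168535 to 117181367, plus strand), Cxcl14 on chromosome 13 (56288643 to 56296551, minus strand) and Cxcl16 on chromosome 11 (70453983 to 70459984, minus strand). Cxcl16 overlaps Zmynd15, and Cxcl10 overlaps Art3, each on the opposite strand. The strand setting of the counting was not stated, so reads of these pairs could have been mixed. Art3 held at most 0.373 CPM in any library. Zmynd15 ran from 6.82 to 15.9 CPM, against 114.7 CPM or more for Cxcl16. Of all 50-base stretches in annotated Cxcl2 transcripts, 5.84% were shared with Cxcl3, so a small part of the reads of these near relatives is uncertain. Cxcl1 transcripts shared 0 of 1970 such stretches with any other gene.

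Sequence upstream of 4 members called higher with R848 in WT cells is shown, so that their kappaB matches can be read. Promoters came from RefSeq (GRCm38.p6), which gave 7 of the 9 members, all but Cxcl5 and Cxcl16. The lines hold 120 bases each, 5′ to 3′ on the strand of the gene. For Cxcl1 (chr5:90891125-90891244, plus strand), Cxcl2 (chr5:90903779-90903898, plus strand) and Cxcl3 (chr5:90785981-90786100, plus strand) they end at the base before RefSeq's transcription start. For Cxcl10 (chr5:92349020-92349139, minus strand) the line runs from base -250 to base -131 relative to the start. Capitals mark matches to the kappaB motif, a binding site of NF-kB, and, in Cxcl10, also a match to the interferon-stimulated response element. The kappaB motif was searched as GGGA, any 2 bases, then TTCC, and the interferon-type motif as GAAA, any 2 bases, then GAAA, both on either strand.
Cxcl1: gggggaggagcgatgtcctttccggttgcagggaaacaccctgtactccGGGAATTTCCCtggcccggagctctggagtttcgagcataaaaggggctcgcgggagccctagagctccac
Cxcl2: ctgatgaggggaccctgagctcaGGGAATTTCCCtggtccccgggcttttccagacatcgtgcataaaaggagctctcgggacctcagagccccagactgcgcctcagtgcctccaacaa
Cxcl3: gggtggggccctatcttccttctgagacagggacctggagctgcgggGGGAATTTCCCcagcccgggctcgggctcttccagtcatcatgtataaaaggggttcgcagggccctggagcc
Cxcl10: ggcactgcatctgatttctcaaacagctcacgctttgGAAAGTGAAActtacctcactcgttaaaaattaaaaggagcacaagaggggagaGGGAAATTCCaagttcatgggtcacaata

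Cxcl1, Cxcl2 and Cxcl3 carried the same run of capitals, in which overlapping matches on both strands count as 2. It began 71 bases before the start in Cxcl1 (base -71), at base -97 in Cxcl2 and at base -73 in Cxcl3. In Cxcl10 the kappaB match lay at bases -159 to -150 and the interferon-type match at bases -213 to -204. The kappaB motif was found in 1.47% of 32851 RefSeq promoters of the same 300-base length, and the interferon-type motif in 3.44%. Neither motif was matched in the windows of Cxcl9 and Cxcl12, and Cxcl14 held only an interferon-type match, at bases -172 to -163. A match is a description of letters and does not show binding.

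**Figure D1:**
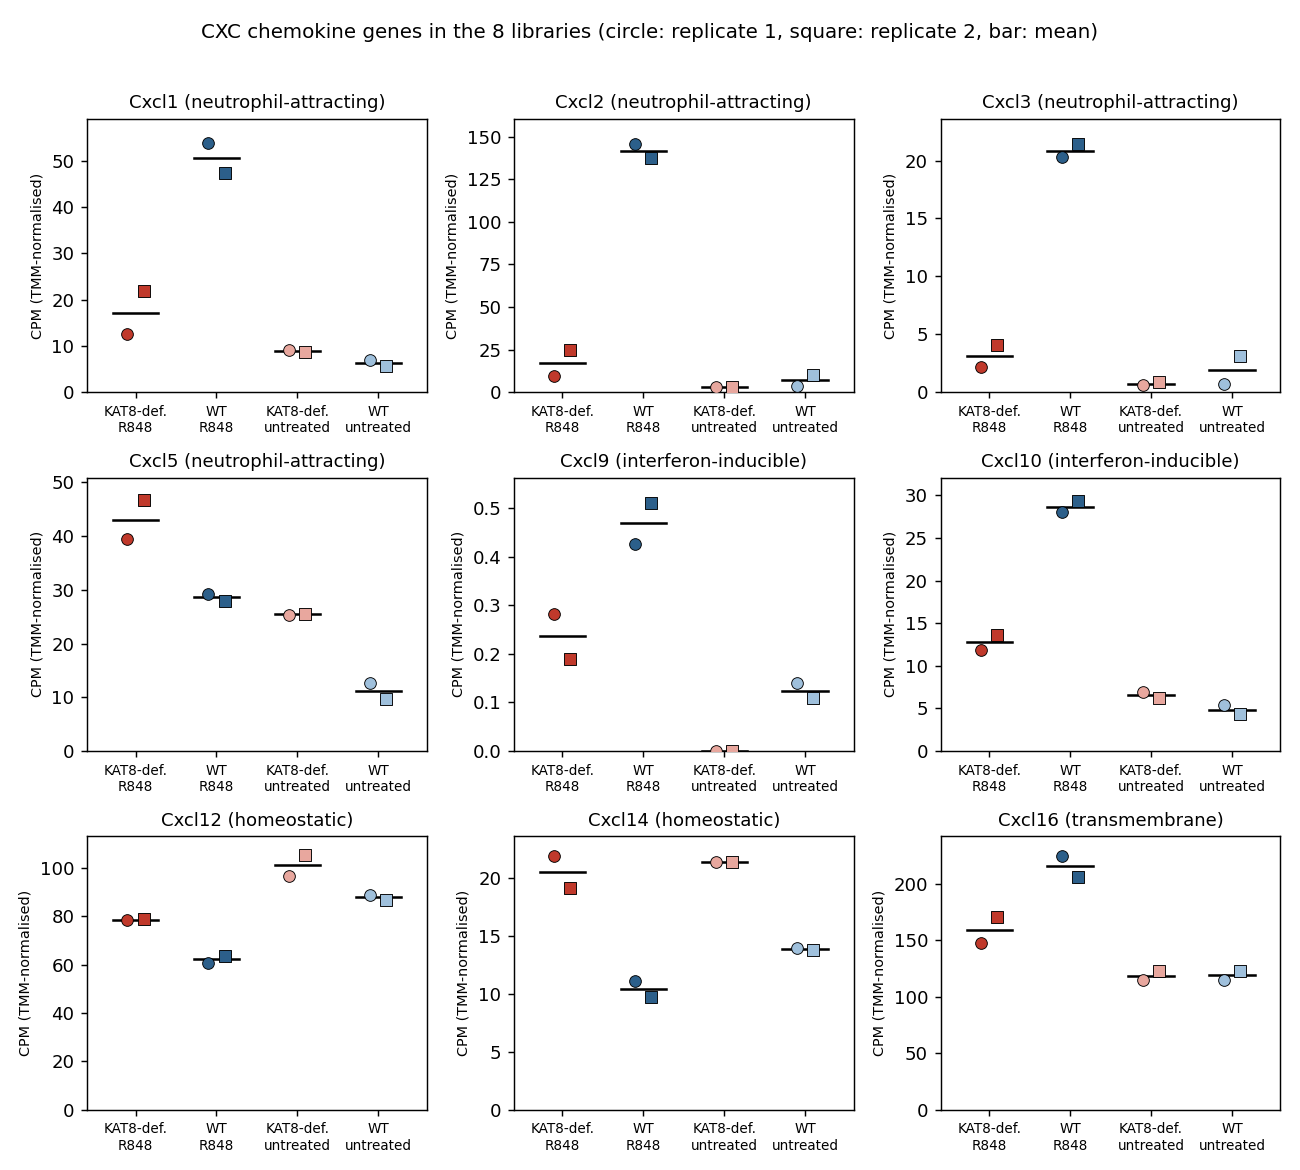
Level of each CXC chemokine gene (CPM, normalised by TMM, linear axis from 0) in KAT8-deficient and WT libraries with R848 and untreated. Circles are replicate 1, squares replicate 2 and bars the mean of both. Cxcl1, Cxcl2, Cxcl3 and Cxcl10 peak in WT R848 libraries, whereas Cxcl5 and Cxcl14 are higher in KAT8-deficient than in WT libraries in both states.

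The libraries within a group did not always lie close together. Tlr7, the receptor of R848, stood at 29.6 and 69.1 CPM in KAT8-deficient R848, 84.6 and 35.2 CPM in WT R848, 33.1 and 77.9 CPM in untreated KAT8-deficient and 30.2 and 33.9 CPM in untreated WT libraries, and was called in none of the 5 edgeR tests (adjusted p from 0.314 to 0.917). Its part in the results was not tested. In KAT8-deficient R848 replicate 2 Cxcl2 stood at 25.0 CPM, against 9.47 CPM in replicate 1, and Cxcl1 and Cxcl3 were also higher in replicate 2. Untreated WT replicate 2 held 9.83 CPM of Cxcl2 and 3.15 CPM of Cxcl3, against 3.91 and 0.746 CPM in replicate 1. For the calls and values that moved most, the values without these libraries are given beside them.

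To compare levels between genes, CPM was divided by exon length in kb. Cxcl16 was the most abundant member by this measure in each of the 8 libraries, and Cxcl9 the least. In WT R848 cells Cxcl16 averaged 71.4 ± 4.38 and Cxcl2 68.4 ± 2.92 CPM per kb (SD, n = 2), closer together than the spread of Cxcl16. Cxcl1 came next in those cells at 27.0 ± 2.45 CPM per kb (SD, n = 2), then Cxcl5 at 15.4 ± 0.515 and Cxcl10 at 12.7 ± 0.409 CPM per kb (SD, n = 2). Cxcl12 stood at 7.61 ± 0.247, Cxcl3 at 5.96 ± 0.237 and Cxcl14 at 5.72 ± 0.541 CPM per kb (SD, n = 2), and Cxcl3 and Cxcl14 overlapped. In KAT8-deficient R848 cells the order below Cxcl16 (52.6 ± 5.48) was Cxcl5 (23.1 ± 2.72), Cxcl14 (11.2 ± 1.07), Cxcl12 (9.62 ± 0.0676), Cxcl1 (9.17 ± 3.44) and Cxcl2 (8.32 ± 5.29), in CPM per kb (SD, n = 2). Cxcl14, Cxcl12, Cxcl1 and Cxcl2 did not keep a fixed order there, since Cxcl1 and Cxcl2 spread across the other two. Next by mean stood Cxcl10 (5.65 ± 0.566), which lay above Cxcl2 in replicate 1 and below it in replicate 2, then Cxcl3 (0.896 ± 0.372) and Cxcl9 (0.0781 ± 0.0221 CPM per kb; SD, n = 2). In untreated cells of either genotype Cxcl3 and Cxcl9 were the lowest members. Exon lengths combine all annotated transcripts, so a gene with several forms, such as Cxcl12 with 8176 bases, is placed low by this measure.

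The response of WT cells to R848 asks which family members a TLR7 signal moves in intact cells. All 4 neutrophil-attracting genes rose, as did Cxcl10 and Cxcl16, while Cxcl12 and Cxcl14 fell. Of the 8 members that passed the filter on low counts, 6 were called higher and 2 lower (edgeR adjusted p under 0.05), against 6.94% and 6.7% of all 14040 tested genes. The median change of these 8 was 1.96 on the log2 scale, against -0.00 (-0.0024) over all tested genes. R848 and untreated libraries overlapped for none of the 8, a separation also seen for 27.7% of tested genes upwards and 28.3% downwards.

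Cxcl2 had the widest range. It stood at 145.8 and 137.2 CPM in WT R848 libraries against 3.91 and 9.83 CPM in untreated WT libraries, 20.9-fold higher (log2 4.39, SE 0.46, edgeR adjusted p = 0.000479). Leaving out untreated WT replicate 1 or 2 gave log2 values of 3.83 and 5.18. Cxcl1 stood at 53.8 and 47.3 CPM in WT R848 against 6.99 and 5.76 CPM in untreated WT libraries, 7.9-fold higher (log2 2.98, SE 0.24, edgeR adjusted p = 0.000155). Untreated replicates of Cxcl1 lay close together, whereas those of Cxcl2 did not.

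Cxcl3 stood at 20.3 and 21.4 CPM in WT R848 against 0.746 and 3.15 CPM in untreated WT libraries, a log2 rise of 3.46 (SE 0.45, edgeR adjusted p = 0.00141). Without untreated WT replicate 2 the log2 rise was 4.798, and without replicate 1 it was 2.71. Cxcl5, which in mice is also known from epithelial and stromal cells, stood at 29.3 and 27.9 CPM in WT R848 against 12.6 and 9.61 CPM in untreated WT libraries. Its log2 rise of 1.36 (SE 0.14, edgeR adjusted p = 0.000362) was the smallest of the 4.

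Among the interferon-inducible genes, Cxcl10 stood at 28.003 and 29.3 CPM in WT R848 against 5.40 and 4.29 CPM in untreated WT libraries. Its log2 rise of 2.56 (SE 0.14, edgeR adjusted p = 7.05e-05) had the fifth smallest p of all tested genes. Cxcl9 was too low to test. It had 6 and 4 counts in KAT8-deficient R848, 8 and 10 in WT R848, 0 and 0 in untreated KAT8-deficient and 3 and 2 in untreated WT libraries. The 0 counts allow up to 0.158 and 0.161 CPM, and such limits cover counting error only.

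The homeostatic genes moved the other way and by less. Cxcl12 stood at 60.8 and 63.7 CPM in WT R848 against 88.9 and 86.9 CPM in untreated WT libraries, lower by log2 -0.50 (SE 0.066, edgeR adjusted p = 0.00155). Cxcl14, whose receptor is not settled, stood at 11.1 and 9.75 CPM in WT R848 against 14.0 and 13.8 CPM in untreated WT libraries (log2 -0.41, SE 0.11, edgeR adjusted p = 0.0455). That call was lost by DESeq2 (adjusted p = 0.132), limma-voom (0.0585) and with only the 4 libraries compared (0.088), and without either WT R848, either untreated KAT8-deficient or either untreated WT library (adjusted p from 0.0712 to 0.221). The summed stromal markers were 2702 and 2904 CPM in WT R848 against 3199 and 3720 CPM in untreated WT libraries, and 4 of 11 tested markers fell and 1 rose (6.7% and 6.94% of all tested genes). The part of these cells in the values of Cxcl12 and Cxcl14 was not tested.

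Cxcl16 stood at 225 and 206 CPM in WT R848 against 115 and 123 CPM in untreated WT libraries, a log2 rise of 0.86 (SE 0.086, edgeR adjusted p = 0.00039). Its antisense neighbour Zmynd15 also rose (log2 0.93, SE 0.17, edgeR adjusted p = 0.00731). Of the 50-base stretches in annotated Cxcl16 transcripts, 16.9% were shared with Zmynd15. Reads from those stretches cannot be told apart without strand.

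**Figure D2:**
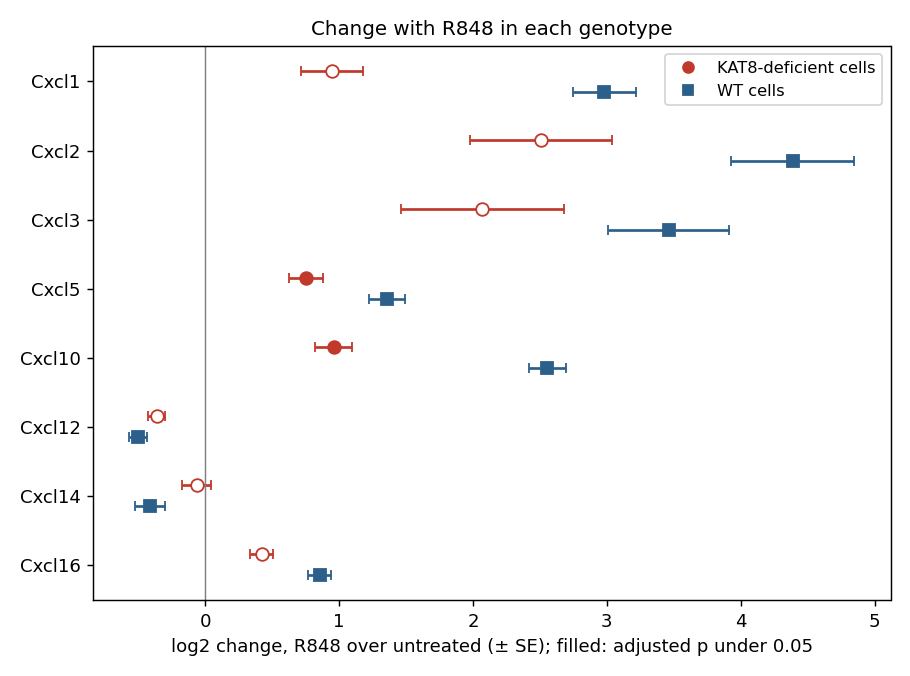
Change with R848 (log2, R848 over untreated, ± SE of the edgeR test) for the 8 tested members in KAT8-deficient (circles) and WT cells (squares). Filled symbols have adjusted p under 0.05. Cxcl2 lies at 2.51 in KAT8-deficient and 4.39 in WT cells, and only Cxcl5 and Cxcl10 are filled in KAT8-deficient cells.

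The same question in KAT8-deficient cells gave smaller fitted changes for each of the 8. Cxcl5 and Cxcl10 were called higher, 2 of 8, against 0.499% of all tested genes, and 0 were called lower, against 0.135%. The median change was 0.85 on the log2 scale, against 0.00 (0.002) over all tested genes. Treated and untreated libraries did not overlap for 7 of the 8 (6 higher and Cxcl12 lower), and overlapped for Cxcl14. Among all tested genes 23.8% were separated upwards and 23% downwards.

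Cxcl5 stood at 39.5 and 46.6 CPM in KAT8-deficient R848 against 25.4 and 25.6 CPM in untreated KAT8-deficient libraries (log2 0.76, SE 0.13, edgeR adjusted p = 0.0426). Cxcl10 stood at 11.8 and 13.6 CPM in KAT8-deficient R848 against 6.88 and 6.21 CPM in untreated KAT8-deficient libraries (log2 0.96, SE 0.14, edgeR adjusted p = 0.03). Both calls were lost without KAT8-deficient R848 replicate 2, either WT R848 library or either untreated KAT8-deficient library, with adjusted p from 0.0879 to 0.289 for Cxcl5 and from 0.0655 to 0.176 for Cxcl10. They were also lost with only the 4 libraries compared (adjusted p = 0.0883 and 0.0907).

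Cxcl2 stood at 9.47 and 25.0 CPM in KAT8-deficient R848 against 3.10 and 2.94 CPM in untreated KAT8-deficient libraries, which missed the threshold (log2 2.51, SE 0.53, edgeR adjusted p = 0.0875). Cxcl1 stood at 12.6 and 21.7 CPM in KAT8-deficient R848 against 9.08 and 8.72 CPM in untreated KAT8-deficient libraries (log2 0.95, SE 0.23, edgeR adjusted p = 0.127). Both treated libraries lay above both untreated ones for each gene, but apart from each other.

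Without KAT8-deficient R848 replicate 1, which held the lower values, both passed, Cxcl1 at 1.28 (adjusted p = 0.00628) and Cxcl2 at 3.04 (adjusted p = 0.0119), and so did Cxcl16. Both also passed by DESeq2 (adjusted p = 0.00183 and 0.00979) and with no filter on low counts (0.0149 and 0.00242). Without KAT8-deficient R848 replicate 2 the log2 values were 0.50 for Cxcl1 and 1.65 for Cxcl2.

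Cxcl3 stood at 2.21 and 4.06 CPM in KAT8-deficient R848 against 0.63 and 0.856 CPM in untreated KAT8-deficient libraries (log2 2.07, SE 0.61, edgeR adjusted p = 0.193), and passed with no filter on low counts (0.0376). Without KAT8-deficient R848 replicate 1 its log2 value was 2.44 (edgeR adjusted p = 0.157), and without replicate 2 it was 1.57 (0.508). Cxcl16 stood at 147.3 and 170.7 CPM in KAT8-deficient R848 against 114.7 and 122.4 CPM in untreated KAT8-deficient libraries (log2 0.42, SE 0.086, edgeR adjusted p = 0.0824). Cxcl12 stood at 78.3 and 79.05 CPM in KAT8-deficient R848 against 96.6 and 105.4 CPM in untreated KAT8-deficient libraries (log2 -0.36, SE 0.065, edgeR adjusted p = 0.0567). Cxcl12 and Cxcl16 passed by DESeq2 (adjusted p = 0.016 and 0.00374), with robust estimation of the spread (0.0328 and 0.0367) and with no filter on low counts (0.0275 and 0.0128). Cxcl14 stood at 21.9 and 19.1 CPM in KAT8-deficient R848 and at 21.4 in each untreated KAT8-deficient library (log2 -0.06, SE 0.11, edgeR adjusted p = 0.839).

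The direct comparison of genotypes under R848 split the family. Cxcl1, Cxcl2, Cxcl3, Cxcl10 and Cxcl16 were lower in KAT8-deficient cells, while Cxcl5, Cxcl12 and Cxcl14 were higher. All 8 tested members were called, 5 lower and 3 higher, against 5.47% and 8.14% of all tested genes, and for each of them the libraries of the genotypes did not overlap. Such separation was seen for 30.3% of tested genes downwards and 29.2% upwards. The median difference of the 8 was -0.80 on the log2 scale, against -0.01 (-0.0075) over all tested genes.

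Within the neutrophil-attracting group 3 genes went one way and 1 the other. Cxcl2 stood at 9.47 and 25.0 CPM in KAT8-deficient R848 against 145.8 and 137.2 CPM in WT R848 libraries, lower in KAT8-deficient cells (log2 -3.04, SE 0.42, edgeR adjusted p = 0.00215). Cxcl3 stood at 2.21 and 4.06 CPM in KAT8-deficient R848 against 20.3 and 21.4 CPM in WT R848 libraries (log2 -2.73, SE 0.42, edgeR adjusted p = 0.00352). Cxcl1 differed by -1.56 (SE 0.21, edgeR adjusted p = 0.00218), with 12.6 and 21.7 CPM in KAT8-deficient R848 against 53.8 and 47.3 CPM in WT R848 libraries.

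The higher of the KAT8-deficient libraries thus stayed below the lower WT library by a wide margin for all 3 genes. Their calls held whichever library was left out, with log2 values from -3.89 to -2.50 for Cxcl2, from -3.23 to -2.36 for Cxcl3 and from -1.996 to -1.21 for Cxcl1. Leaving out KAT8-deficient R848 replicate 2 or replicate 1 gave the ends of each range.

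Cxcl5 stood at 39.5 and 46.6 CPM in KAT8-deficient R848 against 29.3 and 27.9 CPM in WT R848 libraries, 1.51-fold higher (log2 0.59, SE 0.13, edgeR adjusted p = 0.0158). The call was lost without KAT8-deficient R848 replicate 2 (0.47, adjusted p = 0.0785) or without WT R848 replicate 1 (adjusted p = 0.0784) or 2 (adjusted p = 0.097). All the other tests and settings, and the other 5 libraries left out in turn, kept it.

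The make-up of the neutrophil-attracting messages was also set side by side. Their sum was 33.1 and 49.9 CPM per kb in KAT8-deficient R848 against 120.7 and 112.7 CPM per kb in WT R848 libraries. Of that sum Cxcl5 made up 64.0% and 50.2% in KAT8-deficient R848 against 13.02% and 13.3% in WT R848 libraries, and Cxcl2 made up 13.8% and 24.2% in KAT8-deficient R848 against 58.4% and 58.9% in WT R848 libraries. In untreated cells the Cxcl5 share was 67.7% and 68.5% in KAT8-deficient against 53.7% and 37.2% in WT libraries. Cxcl1 kept between 20.3% and 29.6% of the sum in all 8 libraries. With 2 libraries against 2 no permutation test of a share can pass 0.05, so these shares are given without one.

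**Figure D3:**
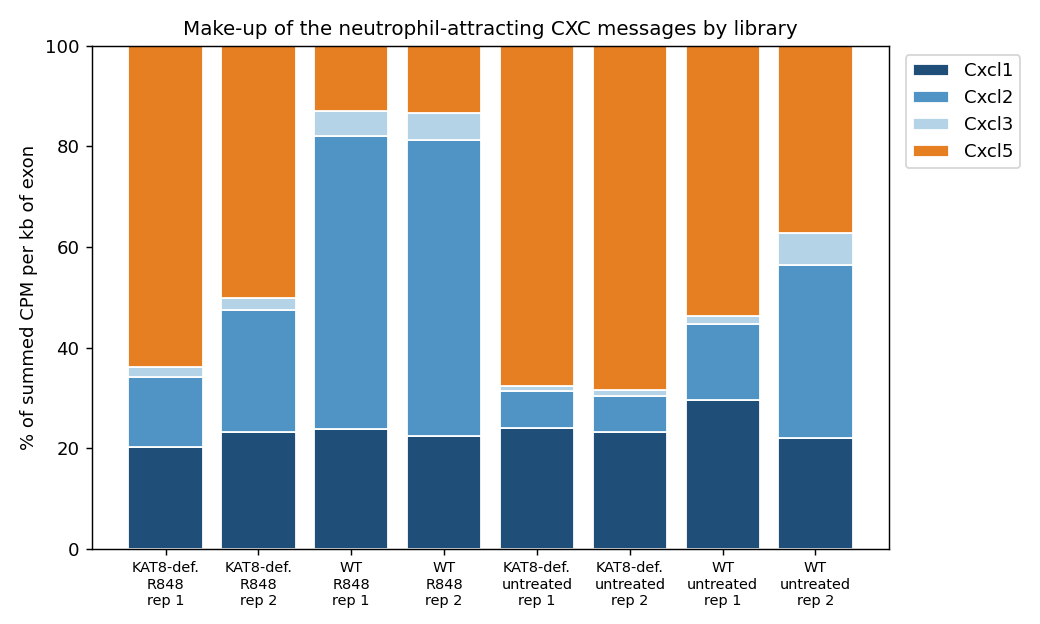
Share of Cxcl1, Cxcl2, Cxcl3 and Cxcl5 in their summed level (% of CPM per kb of exon) in each of the 8 libraries. Cxcl2 (mid blue) is the largest share in both WT R848 libraries, at 58.4% and 58.9%, and Cxcl5 (orange) is the largest in both KAT8-deficient R848 libraries, at 64.0% and 50.2%.

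Cxcl10 stood at 11.8 and 13.6 CPM in KAT8-deficient R848 against 28.003 and 29.3 CPM in WT R848 libraries (log2 -1.17, SE 0.13, edgeR adjusted p = 0.000857), and was called under all settings and without each library in turn. Of 12 genes for interferons, their receptors and signalling, 10 could be tested, and 3 were lower and 0 higher in KAT8-deficient R848 cells (5.47% and 8.14% of all tested genes). Irf1, a transcription factor that acts on Cxcl9 and Cxcl10, stood at 22.9 and 30.2 CPM in KAT8-deficient R848 against 56.5 and 57.7 CPM in WT R848 libraries (log2 -1.10, SE 0.14, edgeR adjusted p = 0.00141). Ifnar2, a chain of the type I interferon receptor, was lower as well (log2 -0.37, edgeR adjusted p = 0.0103). Irf7, a transcription factor of the interferon response, was lower under R848 (log2 -0.63, edgeR adjusted p = 0.0212) and also in untreated cells (log2 -0.76, edgeR adjusted p = 0.029). Ifnb1 reached at most 0.0543 CPM in any library, which is 1 count, and was not tested.

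Cxcl16 stood at 147.3 and 170.7 CPM in KAT8-deficient R848 against 225 and 206 CPM in WT R848 libraries, a smaller gap (log2 -0.44, SE 0.086, edgeR adjusted p = 0.0111). The call was lost without KAT8-deficient R848 replicate 1 (-0.33, adjusted p = 0.0721) and without WT R848 replicate 1 (-0.37, adjusted p = 0.0909). Zmynd15 had 9.14 and 12.8 CPM in KAT8-deficient R848 against 15.9 and 15.3 CPM in WT R848 libraries and missed the threshold (log2 -0.51, SE 0.16, edgeR adjusted p = 0.0751).

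The homeostatic genes were higher in KAT8-deficient R848 cells. Cxcl14 stood at 21.9 and 19.1 CPM in KAT8-deficient R848 against 11.1 and 9.75 CPM in WT R848 libraries, 1.96-fold higher (log2 0.97, SE 0.11, edgeR adjusted p = 0.00101), and stayed called under all settings and without each library in turn. Cxcl12 stood at 78.3 and 79.05 CPM in KAT8-deficient R848 against 60.8 and 63.7 CPM in WT R848 libraries (log2 0.34, SE 0.066, edgeR adjusted p = 0.0111). Without WT R848 replicate 1 the Cxcl12 call was lost (0.31, adjusted p = 0.0939).

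**Figure D4:**
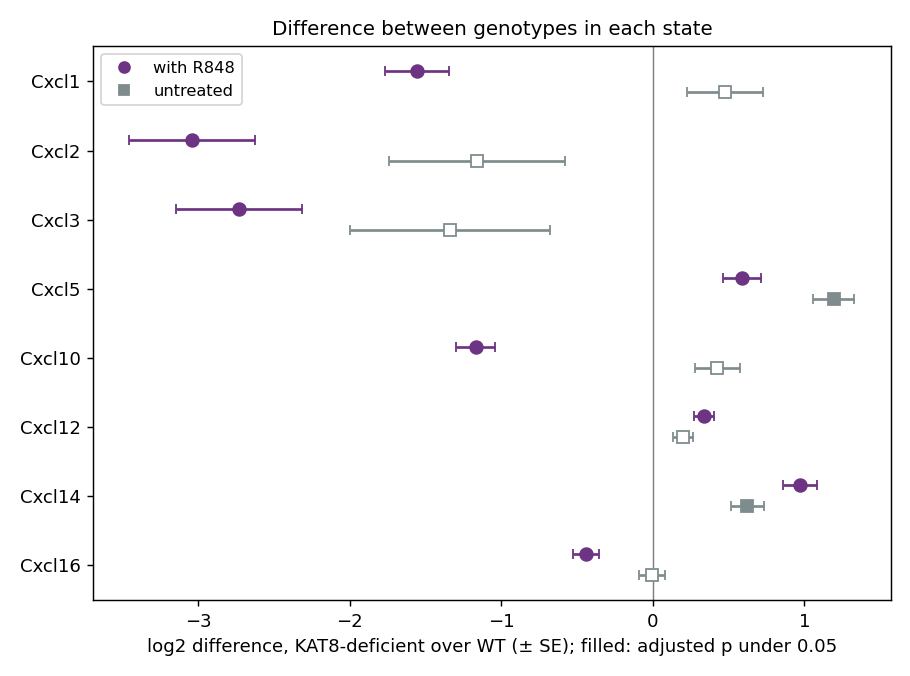
Difference between genotypes (log2, KAT8-deficient over WT, ± SE of the edgeR test) for the 8 tested members with R848 (circles) and untreated (squares). Filled symbols have adjusted p under 0.05. With R848 all 8 are filled, from -3.04 for Cxcl2 to 0.97 for Cxcl14, and untreated only Cxcl5 and Cxcl14 are.

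In untreated cells the genotype comparison asks whether the family differed before any TLR7 signal. Cxcl5 and Cxcl14 were higher in KAT8-deficient cells, 2 of 8 tested members, while 4.27% of all tested genes were called (2.91% higher, 1.36% lower), and 0 members were lower. Cxcl5 stood at 25.4 and 25.6 CPM in untreated KAT8-deficient against 12.6 and 9.61 CPM in untreated WT libraries, 2.29-fold higher (log2 1.19, SE 0.14, edgeR adjusted p = 0.00428), and was called whichever library was left out. Cxcl14 stood at 21.4 CPM in each untreated KAT8-deficient against 14.0 and 13.8 CPM in untreated WT libraries (log2 0.62, SE 0.11, edgeR adjusted p = 0.02). That call was lost without either library of either untreated group (adjusted p from 0.0829 to 0.117).

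The genes with the largest R848 responses were not called here. Cxcl2 stood at 3.10 and 2.94 CPM in untreated KAT8-deficient against 3.91 and 9.83 CPM in untreated WT libraries (log2 -1.16, SE 0.58, edgeR adjusted p = 0.309). Without untreated WT replicate 2 the difference was -0.37 (adjusted p = 0.803). Cxcl3 stood at 0.63 and 0.856 CPM in untreated KAT8-deficient against 0.746 and 3.15 CPM in untreated WT libraries, which overlap (log2 -1.34, SE 0.66, edgeR adjusted p = 0.302), and without the same library the difference was -0.00 (-0.0007). Cxcl1 had 9.08 and 8.72 CPM in untreated KAT8-deficient against 6.99 and 5.76 CPM in untreated WT libraries (log2 0.48, SE 0.25, edgeR adjusted p = 0.332).

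Cxcl10, with 6.88 and 6.21 CPM in untreated KAT8-deficient against 5.40 and 4.29 CPM in untreated WT libraries, also missed the threshold (log2 0.43, SE 0.15, edgeR adjusted p = 0.159). Cxcl12, with 96.6 and 105.4 CPM in untreated KAT8-deficient against 88.9 and 86.9 CPM in untreated WT libraries, was not called either (log2 0.20, SE 0.065, edgeR adjusted p = 0.133). Cxcl16 differed by -0.01 (SE 0.087, edgeR adjusted p = 0.974). Untreated libraries of the genotypes overlapped only for Cxcl3 and Cxcl16. They were separated upwards for Cxcl1, Cxcl5, Cxcl10, Cxcl12 and Cxcl14 and downwards for Cxcl2, as they were for 24.9% and 25.5% of all tested genes.

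Summed stromal and mesothelial markers were higher in KAT8-deficient than in WT libraries in each state, as were Cxcl5, Cxcl12 and Cxcl14. Of these 3 genes, Cxcl12 was not called in untreated cells (log2 0.20, edgeR adjusted p = 0.133). The 12 stromal markers summed to 4068 and 3973 CPM in KAT8-deficient R848 against 2702 and 2904 CPM in WT R848 libraries, and to 4721 and 4467 CPM in untreated KAT8-deficient against 3199 and 3720 CPM in untreated WT libraries. Of 11 tested, 8 were higher and 0 lower in KAT8-deficient cells in each state, while 8.14% of all tested genes were higher under R848 and 2.91% in untreated cells. With R848 the stromal sum was lower than untreated in both genotypes and Cxcl5 was higher. Bulk libraries cannot show in which cells either change lay, and this was not tested. Under R848 the collagen gene Col3a1 differed by 1.17 (SE 0.12, edgeR adjusted p = 0.000684) and the matrix proteoglycan gene Lum by 1.496 (SE 0.15, edgeR adjusted p = 0.000638), both as log2 values. Lepr, a marker of the marrow stroma that makes Cxcl12, was listed at 0 in 7 of the 8 libraries and had 1 count in the other.

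The 4 mesothelial markers summed to 379 and 313 CPM in KAT8-deficient R848 against 204 and 207 CPM in WT R848 libraries, and to 368 and 336 CPM in untreated KAT8-deficient against 240 and 228 CPM in untreated WT libraries. Against the same shares of all tested genes, all 4 were higher in KAT8-deficient cells with R848, and Upk3b alone without it. Among the endothelial markers tested, Kdr was higher in KAT8-deficient cells under R848 (log2 0.53, edgeR adjusted p = 0.0139). Cdh5 was not called there (log2 -1.04, edgeR adjusted p = 0.135), and neither was called in untreated cells. The 7 macrophage markers summed to 3345 and 3734 CPM in KAT8-deficient R848 against 4241 and 3911 CPM in WT R848 libraries. Of them 3 were lower and 1 higher (5.47% and 8.14% of all tested genes). In untreated cells they summed to 3704 and 3462 CPM in KAT8-deficient against 3901 and 3759 CPM in WT libraries. There 0 of 7 were called by edgeR (4.27% of all tested genes), with 3 at an unadjusted p under 0.05. The part of these cells in the higher Cxcl5, Cxcl12 and Cxcl14, or in the lower genes, was not tested.

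**Figure D5:**
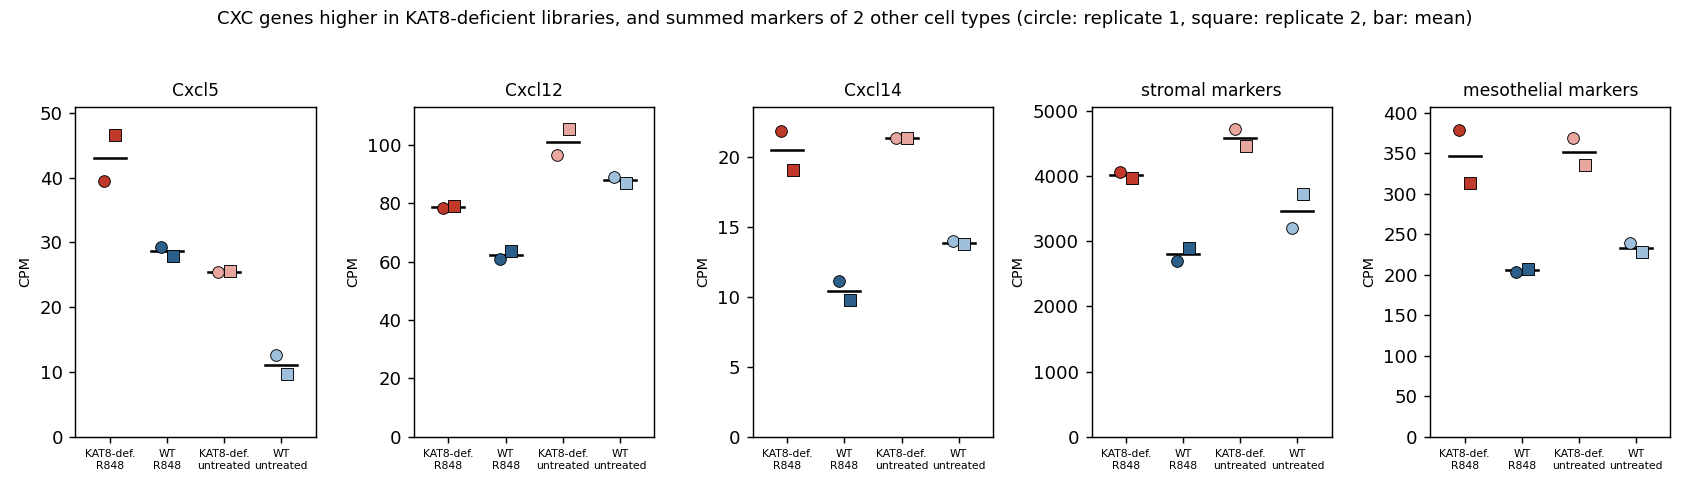
Levels of Cxcl5, Cxcl12 and Cxcl14 beside the summed levels of 12 stromal and 4 mesothelial markers (all CPM, linear axes from 0) in the 4 groups. Circles are replicate 1, squares replicate 2 and bars the mean of both. In each state each of the 5 panels has both KAT8-deficient libraries above both WT libraries. Of all tested genes, 29.2% were separated this way with R848 and 24.9% untreated. The CXC genes shown were chosen because they were higher in KAT8-deficient libraries.

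The interaction asks whether the R848 response itself differed between genotypes, which the separate calls above do not show. Only Cxcl10 passed, with a KAT8-deficient response smaller than the WT response by 1.60 on the log2 scale (log2 -1.60, SE 0.20, edgeR adjusted p = 0.0252). That was 1 of 8 tested members called lower and 0 higher, against 0.171% and 0.057% of all tested genes. Its call was lost without either WT R848 library, either untreated KAT8-deficient library or untreated WT replicate 2 (log2 from -1.66 to -1.45, adjusted p from 0.0537 to 0.105), and held under all other tests and settings.

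Cxcl1 had a larger fitted interaction, -2.03 (SE 0.33), that fell just outside the threshold (edgeR adjusted p = 0.0545). It passed by DESeq2 (4.87e-08), with no filter on low counts (0.0011) and without KAT8-deficient R848 replicate 1 (-1.69, adjusted p = 0.0208) or 2 (-2.47, adjusted p = 0.00331). For Cxcl2 the interaction was -1.88 (SE 0.73, edgeR adjusted p = 0.362) and for Cxcl3 -1.39 (SE 0.83, edgeR adjusted p = 0.587). With 1 library left out in turn, Cxcl2 lay between -2.73 and -1.33 and Cxcl3 between -2.73 and -0.64. Cxcl5 (-0.60, SE 0.18, edgeR adjusted p = 0.239) and Cxcl16 (-0.43, SE 0.12, edgeR adjusted p = 0.194) were below 0 too. Cxcl12 (0.14, SE 0.093) and Cxcl14 (0.35, SE 0.15) were above 0, with edgeR adjusted p = 0.644 and 0.445.

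Genes for 10 NF-kB subunits and IkB proteins, which bind kappaB sites or control that binding, were measured beside the members. Their messenger RNA was counted, which is not a measure of NF-kB activity. The part of these genes in the levels of the members was not tested. All 10 rose with R848 in WT cells, as did 6.94% of all tested genes, and 1, Nfkbie, rose in KAT8-deficient cells, as did 0.499%. Under R848 9 of the 10 were lower and 0 higher in KAT8-deficient cells (5.47% and 8.14% of all tested genes). In untreated cells 0 of 10 were called by edgeR (4.27% of all tested genes), with 1 of 10 at an unadjusted p under 0.05. Nfkbiz, whose product is a nuclear coactivator of inflammatory genes, stood at 35.2 and 48.4 CPM in KAT8-deficient R848 against 89.2 and 92.2 CPM in WT R848 libraries (log2 -1.12, SE 0.13, edgeR adjusted p = 0.00112). It was the 1 member of that list whose interaction passed (log2 -1.48, SE 0.19, edgeR adjusted p = 0.0286). Of all tested genes, 0.171% were called lower and 0.057% higher for the interaction. Nfkbia, which encodes the inhibitor IkB alpha, differed by -1.14 (SE 0.15, edgeR adjusted p = 0.00164) between genotypes under R848, and Relb by -0.59 (SE 0.11, edgeR adjusted p = 0.00904).

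One member of each class was set against all other genes by Pearson's r of log2(CPM + 1) over the 8 libraries, which share their 4 groups and so are not independent points. The genes most like Cxcl2 were Agtrap (r = 0.998), Adora2a (r = 0.997) and Nfkb1 (r = 0.996). Those most like Cxcl10 were the monocyte-attracting chemokine genes Ccl7 (r = 0.995) and Ccl2 (r = 0.995) and Spred1 (r = 0.995). Cxcl12 was most like Ptpra (r = 0.981), Pla2g15 (r = 0.981) and Map3k20 (r = 0.979). Ccl2 stood at 126 and 155 CPM in KAT8-deficient R848 against 263 and 238 CPM in WT R848 libraries, and at 82.3 and 76.3 CPM in untreated KAT8-deficient against 67.2 and 61.9 CPM in untreated WT libraries.

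Of 6 other CXC ligands, Cxcl15 and Cxcl17 had 0 counts throughout, Cxcl11 and Ppbp had at most 1 count in a library, and Cxcl13 and Pf4 could be tested. Cxcl13, which guides B cells, stood at 7.63 and 4.01 CPM in KAT8-deficient R848 against 1.92 and 1.79 CPM in WT R848 libraries (log2 1.65, SE 0.39, edgeR adjusted p = 0.0257). Pf4, a platelet factor that macrophages also express, stood at 29.0 and 29.3 CPM in KAT8-deficient R848 against 38.7 and 36.9 CPM in WT R848 libraries (log2 -0.37, SE 0.075, edgeR adjusted p = 0.0129). Neither was called with R848 in either genotype.

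Among 8 receptors of the family, Cxcr4, the receptor of Cxcl12, was among the 4 that could be tested. Cxcr4 stood at 65.9 and 64.7 CPM in KAT8-deficient R848 against 43.1 and 38.4 CPM in WT R848 libraries (log2 0.68, SE 0.075, edgeR adjusted p = 0.000937). In untreated cells it stood at 78.98 and 84.5 CPM in KAT8-deficient against 76.5 and 75.2 CPM in WT libraries, and it fell with R848 in WT cells (log2 -0.90, SE 0.075, edgeR adjusted p = 0.000189). Cxcr1 stood at 3.91 and 3.21 CPM in KAT8-deficient R848 against 5.71 and 5.16 CPM in WT R848 libraries (log2 -0.61, SE 0.17, edgeR adjusted p = 0.0498). In untreated cells it stood at 3.10 and 3.53 CPM in KAT8-deficient against 6.01 and 6.84 CPM in WT libraries (log2 -0.95, SE 0.17, edgeR adjusted p = 0.0232). Cxcr2 and Cxcr3, the receptors of the neutrophil-attracting and interferon-inducible members, ran from 0.518 to 1.57 CPM and from 0.236 to 1.68 CPM.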

How the data were processed

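The authors deposited 1 table of whole-number read counts by Ensembl gene, in which each of the 8 libraries has a column and 0 columns were left unmapped. StringTie 1.3.0, HISAT2, edgeR and the build mm10 are named without their roles, per the submitters' processing notes. Annotation, counting and strand settings: not given in the sources used here. Messenger RNA was captured on beads, per the labels' protocols. Symbols, positions and exon lengths came from GENCODE M21 (GRCm38, the same assembly as mm10).

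Genes were filtered with edgeR's filterByExpr, which left 14040 genes holding 99.95% of counts, and 8 of the 9 members. All 8 libraries were fitted together (edgeR 4.0.16, R 4.3.3) with TMM normalisation, 1 mean per group and the two-sided quasi-likelihood test. The adjustment was Benjamini-Hochberg over all tested genes, with a threshold of 0.05. SE is the absolute log2 change divided by the square root of F. The method was tested on simulated counts, where the share of false calls lay above the nominal threshold, so calls close to it are less firm. The spread within groups exceeded counting error (chi-square of 7.62 to 12.3 for each degree of freedom). Alternatives were DESeq2 1.42.0 (size factors or Wald test), limma-voom 3.58.1, no filter or a stricter one, robust spread, a replicate block, only the libraries compared and leaving out each library.

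The 9 members, the gene lists and the rules were chosen with earlier results of these data known. Named genes are the 9 members, Kat8 and up to 4 called genes per list with the smallest adjusted p. Added to them are the 3 genes most like each of Cxcl2, Cxcl10 and Cxcl12. Likeness was ranked among genes with a mean of at least 5 CPM, leaving out the 9 members and predicted or clone names. Further genes (Zmynd15, Art3, Adam10, Tlr7, Ifnb1, Cxcr2, Cxcr3, Lepr, Cdh5, S100a8, genes at or near 0 and the other macrophage markers) were named after their values were seen.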

Additional observations from a re-analysis of the deposited data

Results flagged for a closer look

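One result was singled out because a test of the difference between the genotypes' R848 responses passed. Cxcl10 had a log2 value of -1.60 for the response of KAT8-deficient cells less that of WT cells (edgeR adjusted p = 0.0252), with responses of 0.96 in KAT8-deficient and 2.56 in WT cells. Treated libraries lay above untreated ones in both genotypes, as for 27.7% of all tested genes in WT and 23.8% in KAT8-deficient cells. The call was not kept with every library left out, as given above. Ccl2 and Ccl7, picked for their likeness to Cxcl10 over these same libraries, passed the same test (log2 -1.13 and -1.06, edgeR adjusted p = 0.0295 for each). Such a pick favours a like result, so their calls add no separate support for that of Cxcl10. Spred1, picked the same way, did not (log2 -0.62, edgeR adjusted p = 0.0678).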

How the results depend on the processing

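Every one of the 8 members kept its call in the genotype comparison under R848 with each of the 8 alternatives that used all replicates. With R848 in KAT8-deficient cells, 2 members were called as reported, against 7 with no filter on low counts, 6 by DESeq2, 4 with robust spread, 1 with the replicate block and 0 with only the 4 libraries compared. Over all genes the count in that comparison was 89 as reported and 274, 238, 158, 73 and 22 under the same alternatives. For the interaction, 1 member was called as reported and 2 with no filter or by DESeq2, and over all genes 32 as reported and 245 with no filter, 231 by DESeq2 and 148 with robust spread. Untreated genotype differences numbered 600 over all genes and 384 with only the 4 libraries compared. The causes were not tested.

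Leaving out 1 library gave 7 to 8 members with R848 in WT cells (858 to 1826 of all genes, 1916 as reported) and 0 to 5 in KAT8-deficient cells (2 to 186). It gave 1 to 2 between untreated genotypes (66 to 606), 5 to 8 between genotypes under R848 (784 to 1894, 1911 as reported) and 0 to 2 for the interaction (6 to 208). Values near 0 changed sign. Cxcl16 between untreated genotypes was 0.0046 with at least 5 CPM in 2 libraries and -0.0638 to 0.0494 without 1 library, and Cxcl14 with R848 in KAT8-deficient cells was -0.169 to 0.029 without 1 library.

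Over all tested genes together, same-numbered libraries did not deviate together (correlations of deviations from -0.0348 to 0.057). The replicate numbers were therefore not taken as pairs, although such correlations cannot show whether the libraries were paired. The replicate block changed 1 call among the members, that of Cxcl5 with R848 in KAT8-deficient cells (log2 0.76, adjusted p = 0.0626). Depth limits Cxcl9 and the lowest ligands and receptors, which had too few counts to test.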

Other observations

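Of 3 proteases that process CXC ligands, 1 was higher and 0 lower in KAT8-deficient R848 cells (8.14% and 5.47% of all tested genes), and 1 was higher and 1 lower in untreated cells (2.91% and 1.36%). Adam10 was not called in either state (log2 -0.19 under R848 and -0.05 untreated, edgeR adjusted p = 0.473 and 0.895). Dpp4, whose product trims Cxcl10 and Cxcl12, stood at 14.7 and 11.9 CPM in KAT8-deficient R848 against 4.21 and 4.59 CPM in WT R848 libraries (log2 1.59, SE 0.16, edgeR adjusted p = 0.00061). In untreated cells it stood at 14.5 and 12.3 CPM in KAT8-deficient against 7.46 and 6.95 CPM in WT libraries (log2 0.89, SE 0.15, edgeR adjusted p = 0.0156). Adam17, a sheddase known to release Cxcl16, stood at 176 and 182 CPM in untreated KAT8-deficient against 349 and 339 CPM in untreated WT libraries (log2 -0.94, SE 0.17, edgeR adjusted p = 0.0228). With R848 it stood at 398 and 440 CPM in KAT8-deficient against 344 and 537 CPM in WT libraries, which overlap.

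Of 7 genes that act on the decay or stability of chemokine messenger RNA, 2 were higher and 1 lower in KAT8-deficient R848 cells (8.14% and 5.47% of all tested genes). Zfp36l1, a decay factor for AU-rich messages, stood at 92.2 and 80.4 CPM in KAT8-deficient R848 against 50.8 and 53.6 CPM in WT R848 libraries (log2 0.73, SE 0.077, edgeR adjusted p = 0.000797). It was also higher in untreated cells, at 89.4 and 89.8 CPM in KAT8-deficient against 64.6 and 64.7 CPM in WT libraries (log2 0.47, SE 0.076, edgeR adjusted p = 0.0146). Zc3h12a, which encodes the RNase Regnase-1, stood at 51.9 and 70.1 CPM in KAT8-deficient R848 against 84.3 and 89.4 CPM in WT R848 libraries (log2 -0.51, SE 0.12, edgeR adjusted p = 0.0268).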
